A study of Drosophila melanogaster with 10 samples.

Results

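Transcript levels of the enzymes that start and run glycolysis were examined in *Drosophila melanogaster* testes lacking tBRD-1, with the testis hexokinases *Hex-t1* and *Hex-t2* set beside the generally used hexokinases *Hex-A* and *Hex-C*. The genes were *Hex-A*, *Hex-C*, *Hex-t1*, *Hex-t2*, *Pglym78*, *Pglym87*, *Gapdh1*, *Gapdh2*, *Pyk* and *Ldh*, and a gene was measured where the array annotation paired a probe set with it and with no other gene. Of these 10 genes, 7 had such a probe set, 1 each, among 18769 probe sets tested. *Gapdh2*, *Pyk* and *Ldh* had no probe set of their own in the platform annotation and are not analysed here, so the 2 closing steps of the pathway were followed only through the further genes described after the members.

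The series compared whole adult testes of homozygous *tbrd-1* mutants, whose genotype is given as tbrd-11/tbrd-11, with testes of wild-type flies of the strain *w1118*. The allele was made by moving a P-element into the *tbrd-1* gene, which encodes a bromodomain protein made in primary spermatocytes. Each genotype had 5 Affymetrix *Drosophila* Genome 2.0 arrays, and each array received its own RNA, pooled from the testes of 25 flies aged 0 to 2 days and reared at 25 °C. Values are signal intensities on a linear scale after the RMA normalization of the depositors, and they can be compared between arrays for 1 probe set but not between probe sets.

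Glycolysis splits glucose into pyruvate and yields ATP and NADH without oxygen. Hexokinase traps glucose in the cell by phosphorylating it, glyceraldehyde-3-phosphate dehydrogenase makes the NADH, phosphoglycerate mutase shifts the phosphate group along the carbon chain, pyruvate kinase makes ATP and pyruvate, and lactate dehydrogenase regenerates NAD from pyruvate. Many metabolic enzymes have duplicate genes in the fly genome that are transcribed mainly in the male germline, and the hexokinases are a textbook case, with *Hex-t1* and *Hex-t2* used in the testis and *Hex-A* and *Hex-C* used in muscle, fat body and other organs.

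The arrays carried the labelled genotypes. *tbrd-1* itself had an intensity of 13.8 ± 2.28 in *tbrd-1* mutant testes and 787.2 ± 140.3 in wild-type testes (SD, n = 5 each), a log2-fold change of -5.83 (limma, adjusted p = 4.377e-10). All 15 markers of spermatocytes and spermatids were measured, and both groups carried the signal of the labelled tissue. Their summed intensity ran between 97466 and 104605 in mutant arrays and between 92196 and 96561 in wild-type arrays, higher in mutant testes without overlap. Of the 15, 1 was lower, 5 were higher and 9 did not pass. The lower one, *can* (log2-fold change -1.11), and 2 of the higher ones, *mia* (1.65) and *dj* (1.09), changed by more than 2-fold. Genes of other organs were present as well, and those of gut and ejaculatory bulb were uneven between arrays. The 10 accessory gland genes measured, of 11 listed, gave a large signal in both genotypes. They summed to between 115311 and 129834 in mutant arrays and to between 117283 and 128469 in wild-type arrays. Of these genes 1 was lower, 0 were higher and 9 did not pass, and their part in the results was not tested. The summed intensity of 14 gut enzymes and transporters, of 17 listed, ran between 431 and 6905 in mutant arrays and between 505 and 23164 in wild-type arrays, and it was high on mutant array 3 and wild-type arrays 1, 3 and 4. The 3 ejaculatory bulb genes summed to between 1412 and 25080 in mutant arrays and to between 2595 and 23201 in wild-type arrays, with mutant arrays 2, 4 and 5 and wild-type arrays 2 and 3 high. These 5 arrays, called rich in ejaculatory bulb RNA below, were picked by *Ebp* and *EbpII* alone. *EbpIII* was also higher on them within each genotype. Between genotypes it differed, with 2227 on mutant array 2 but 2566, 2451 and 2515 on wild-type arrays 1, 4 and 5, which were not picked. The 11 muscle genes measured, of 15 listed, summed to between 10313 and 11886 in mutant arrays and to between 12988 and 15896 in wild-type arrays, without overlap, the lowest of them being at 157 on any array. Fat body markers (6 of 7) summed to between 2284 and 2969 in mutant arrays and between 2172 and 2528 in wild-type arrays. Most of this was *apolpp*, with means of 2163 in mutant and 1994 in wild-type testes.

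None of the 7 genes was altered by the thresholds of the study, an adjusted p of at most 0.05 together with a log2-fold change of at least 1 in size, which 664 of all 18769 probe sets met (3.54%). Smaller changes were measured with unequal precision, with standard errors on the log2 scale from 0.055 for *Hex-t2* to 0.35 for *Hex-C*. At an adjusted p of at most 0.05 without a fold minimum, both testis hexokinases and *Pglym87* were lower in *tbrd-1* mutant testes, *Hex-A* was higher, and *Hex-C*, *Pglym78* and *Gapdh1* did not pass. Over all probe sets, 14.7% were lower and 21.6% were higher by the same rule (2751 and 4052 probe sets), so 3 lower and 1 higher of 7 members stand against a background in which higher calls were the more frequent. Centring every array on its own median moved that background to 1879 lower and 6589 higher, a shift of 0.10 on the log2 scale, and left 1 lower and 1 higher member. The median log2-fold change was -0.24 over the 7 members and 0.07 over all probe sets. With the dimmest probe sets left out, 12512 were kept. Of these 21.0% were lower and 25.6% higher, with a median of 0.03. The values come from bulk RNA of whole testes, so fewer cells of a type and less RNA per cell cannot be told apart.

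*Hex-t2* had the most clearly separated values of the 7 genes. Its probe set read 3551, 3595, 3943, 3463 and 3483 on the 5 mutant arrays and 4961, 5216, 5240, 5272 and 4830 on the 5 wild-type arrays. The highest mutant array lay well below the lowest wild-type array, and the spread within a genotype was small (coefficients of variation of 5.41% in mutant and 3.85% in wild-type testes). The log2-fold change was -0.50 ± 0.055 (SE, 95% interval -0.62 to -0.38), or 0.706 of the wild-type level, with an adjusted p of 3.805e-05 in limma. A separation of this kind, with every mutant array below every wild-type array, was seen for 10.3% of all probe sets, and for *Hex-t2* alone among the 3 members that were lower. Without the 4 gut-rich arrays the difference was -0.51 and passed (adjusted p = 0.00342), and the part of gut RNA in it was not tested further.

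*Hex-t1*, the other testis hexokinase and the direct neighbour of *Hex-t2* on chromosome arm 3R with 0 annotated genes between them, moved the same way by less. Its intensities were 655, 726, 582, 577 and 646 in mutant testes and 743, 832, 697, 827 and 757 in wild-type testes. The groups overlapped only through mutant array 2 and wild-type array 3. The log2-fold change was -0.28 ± 0.078 (SE, 95% interval -0.45 to -0.11), 0.825 of the wild-type level, with an adjusted p of 0.01756 in limma. After median centring the difference was -0.17 and no longer passed (adjusted p = 0.133), and it also missed the threshold at -0.29 without the 4 gut-rich arrays and at -0.33 without the 5 arrays rich in ejaculatory bulb RNA. The first of these fits kept 4 mutant and 2 wild-type arrays, the second 2 mutant and 3 wild-type arrays. Lower calls over all probe sets fell from 14.7% to 9.55% and 5.94% in them. A call lost in either fit, here or below, does not by itself show dependence on the arrays left out. *tbrd-1* lies on the same arm, with 474 annotated genes between it and *Hex-t1*.

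*Hex-A*, the general hexokinase gene on the X chromosome, was the member that rose. It read 426, 338, 372, 337 and 326 in mutant testes and 295, 301, 267, 262 and 215 in wild-type testes. The lowest mutant array was above the highest wild-type array, a pattern that 13.6% of all probe sets showed. The log2-fold change was 0.43 ± 0.10 (SE, 95% interval 0.20 to 0.66), 1.35 times the wild-type level, with an adjusted p of 0.00786 in limma. The call was lost without the 4 gut-rich arrays (0.48, adjusted p = 0.10) and without the 5 arrays rich in ejaculatory bulb RNA (0.64, adjusted p = 0.0662). Fewer arrays were left in both fits, and neither difference was smaller than that over all arrays. Muscle markers ran the other way, with a median log2-fold change of -0.39 over 11 genes, 6 of them lower and 0 higher. Of the 6 fat body markers 1 was higher, *Fbp2*, at a low signal (means of 58.2 in mutant and 45.8 in wild-type testes). Their part in the *Hex-A* values was not tested.

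*Hex-C*, on arm 2R, varied more within each genotype than between them. Its intensities were 232, 582, 347, 238 and 311 in mutant testes and 594, 196, 690, 291 and 339 in wild-type testes. The whole mutant range lay inside the wild-type range, and mutant array 2 and wild-type arrays 1 and 3 stood above the other 7 arrays. The log2-fold change of -0.24 had an interval of -1.01 to 0.54, wide enough to hold large changes in either direction (adjusted p = 0.620, limma). Wild-type arrays 1 and 3 were also the 2 arrays with the highest gut signal, and without the 4 gut-rich arrays the difference turned to 0.29 (adjusted p = 0.685). What the gut RNA contributed to *Hex-C* was not tested, and mutant array 2 was high in *Hex-C* without a high gut signal.

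**Figure D1:**
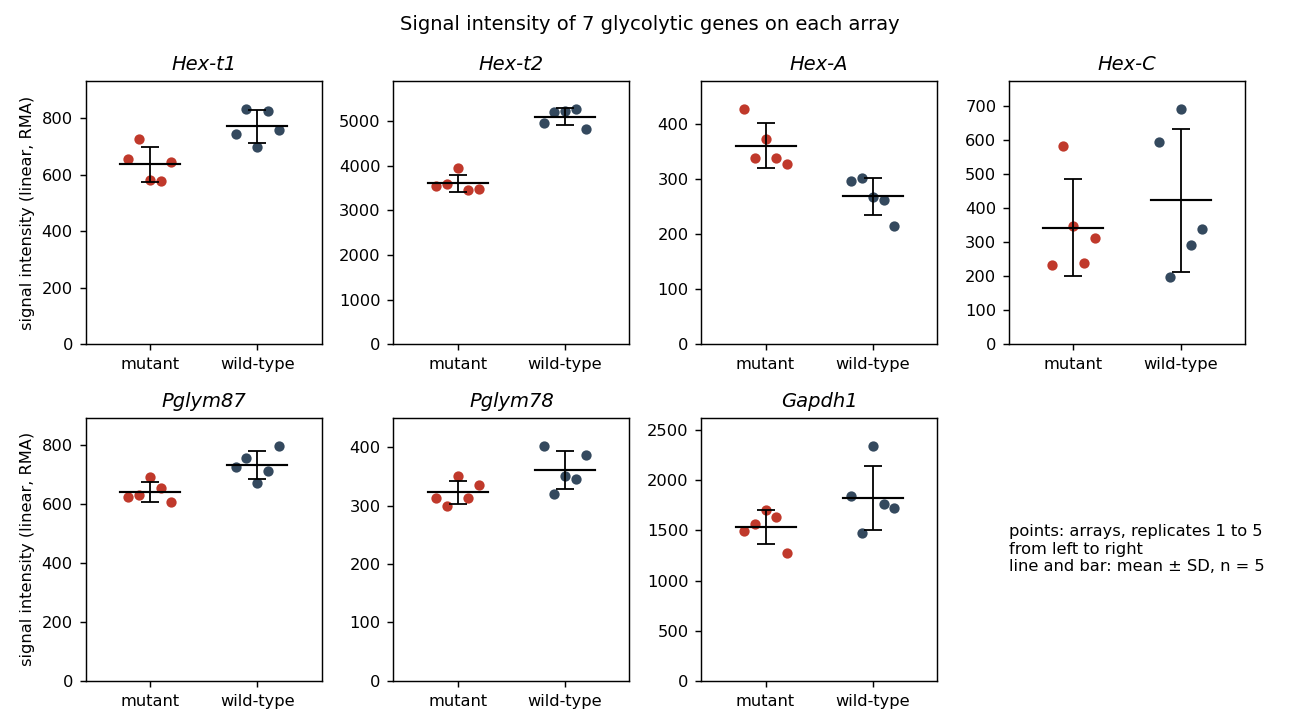
Signal intensity (linear scale after RMA, starting at 0) of the 7 measured glycolytic genes on each array, with *tbrd-1* mutant arrays left of wild-type arrays and replicates 1 to 5 from left to right. Horizontal lines and bars give the mean ± SD (n = 5): *Hex-t2* and *Hex-A* separate by genotype in opposite directions, and *Hex-t1* and *Pglym87* overlap slightly. *Hex-C* scatters between 232 and 582 in mutant testes and between 196 and 690 in wild-type testes.

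Among the members, the genes of later steps gave smaller differences than *Hex-t2*, *Hex-A* and *Hex-t1*. *Gapdh1*, which encodes a glyceraldehyde-3-phosphate dehydrogenase, read 1490, 1562, 1708, 1631 and 1275 in mutant testes and 1839, 1473, 2342, 1764 and 1720 in wild-type testes. Apart from mutant array 5 the mutant values lay inside the wild-type range, whose top, wild-type array 3, was also the array with the most gut signal. The log2-fold change was -0.24 ± 0.12 (SE, 95% interval -0.50 to 0.016) and did not pass (adjusted p = 0.128, limma). Without the 4 gut-rich arrays it was -0.10 (adjusted p = 0.626).

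The 2 phosphoglycerate mutase genes, *Pglym78* and its paralog *Pglym87*, both lie on arm 3R. *Pglym87* had intensities of 624, 632, 694, 655 and 606 in mutant testes and 727, 757, 671, 714 and 798 in wild-type testes. Only mutant array 3 and wild-type array 3 crossed. Its log2-fold change was -0.19 ± 0.062 (SE, 95% interval -0.33 to -0.055), 0.876 of the wild-type level, and it passed narrowly (adjusted p = 0.0324, limma). The call was lost when mutant array 1, 2 or 5 or wild-type array 1, 2 or 5 was left out (adjusted p between 0.0552 and 0.0781) with median centring (-0.09, adjusted p = 0.364), with quantile normalization (-0.17, adjusted p = 0.0689) and without the arrays rich in ejaculatory bulb RNA (-0.18, adjusted p = 0.266), while without the gut-rich arrays the difference was -0.31 (adjusted p = 0.0247).

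*Pglym78* read 313, 300, 351, 313 and 335 in mutant testes and 402, 320, 351, 345 and 387 in wild-type testes. Its groups overlapped, with wild-type array 2 below 2 of the mutant arrays and mutant array 3 level with wild-type array 3. The log2-fold change was -0.16 ± 0.074 (SE, 95% interval -0.32 to 0.0017) and did not pass (adjusted p = 0.111, limma).

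Whether the testis paralogs moved differently from the general genes was tested directly. For each array the log2 intensity of the general gene was subtracted from that of the testis gene, and the 5 mutant values were set against the 5 wild-type values in an exact two-sided permutation test, whose smallest possible p is 0.00794 with 5 arrays a genotype. The zero of such a difference has no meaning, since probe sets differ in brightness for the same amount of RNA, but its shift between genotypes does. Of 8 pairs planned, 7 could be formed, and p-values were adjusted over these 7. The pair of *Gapdh1* and *Gapdh2* could not. The pairs were chosen with earlier results of these data known.

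*Hex-t2* and *Hex-A* moved apart. Their log2 difference was 3.06, 3.41, 3.41, 3.36 and 3.42 on the mutant arrays and 4.07, 4.12, 4.29, 4.33 and 4.49 on the wild-type arrays. All 5 mutant values were lower than all 5 wild-type values, with a mean shift of -0.93, so that *Hex-t2* fell to 0.525 of its wild-type ratio to *Hex-A* (exact permutation test, p = 0.00794, adjusted p = 0.0278, n = 5 each). That p is the smallest the arrays allow.

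*Hex-t1* and *Hex-A* did the same by less. Their difference was 0.62, 1.10, 0.65, 0.78 and 0.99 on the mutant arrays and 1.33, 1.47, 1.38, 1.66 and 1.82 on the wild-type arrays. Again the groups did not overlap, and the mean shift was -0.71, or 0.613 of the wild-type ratio (exact permutation test, p = 0.00794, adjusted p = 0.0278, n = 5 each). Both calls were lost in 9 of the 10 fits that left out 1 array (adjusted p = 0.0556) and kept without mutant array 3 (adjusted p = 0.037). In each of the 10 the p was 0.0159, the smallest that 9 arrays allow in this exact permutation test. With only these pairs of the 7 at that floor, the adjusted p is 0.0556 whatever the size of the shift. Without mutant array 3 a further pair, *Hex-t1* and *Hex-t2*, reached the floor as well. Without the 4 gut-rich arrays, where 4 mutant and 2 wild-type arrays remain and no p below 0.133 is possible, the shifts were -0.99 for *Hex-t2* and -0.77 for *Hex-t1* and did not pass (adjusted p = 0.311, exact permutation test).

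The 2 testis hexokinases were not shown to differ from each other in the test of all arrays. *Hex-t1* against *Hex-t2* shifted by 0.22 towards *Hex-t1* in mutant testes (exact permutation test, p = 0.0556, adjusted p = 0.13, n = 5 each). Without mutant array 3, which had the highest *Hex-t2* value of the mutant arrays, the shift was 0.29 and passed (exact permutation test, adjusted p = 0.037). Against *Hex-C*, whose own values scattered, the shifts were -0.26 for *Hex-t2* (adjusted p = 0.767) and -0.04 for *Hex-t1* (adjusted p = 0.905) in the same exact test. The general hexokinases *Hex-A* and *Hex-C* shifted by 0.67 against each other, with mutant values between -0.78 and 0.88 overlapping wild-type values between -1.37 and 0.62 (exact permutation test, adjusted p = 0.278). *Pglym87* and *Pglym78* had a ratio of 0.979 of the wild-type one, a log2 shift of -0.03 with mutant values between 0.86 and 1.08 and wild-type values between 0.85 and 1.24 (exact permutation test, adjusted p = 0.843). In the pair of phosphoglycerate mutases, then, no unequal change between a paralog and its general gene was detectable with 5 arrays a genotype.

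**Figure D2:**
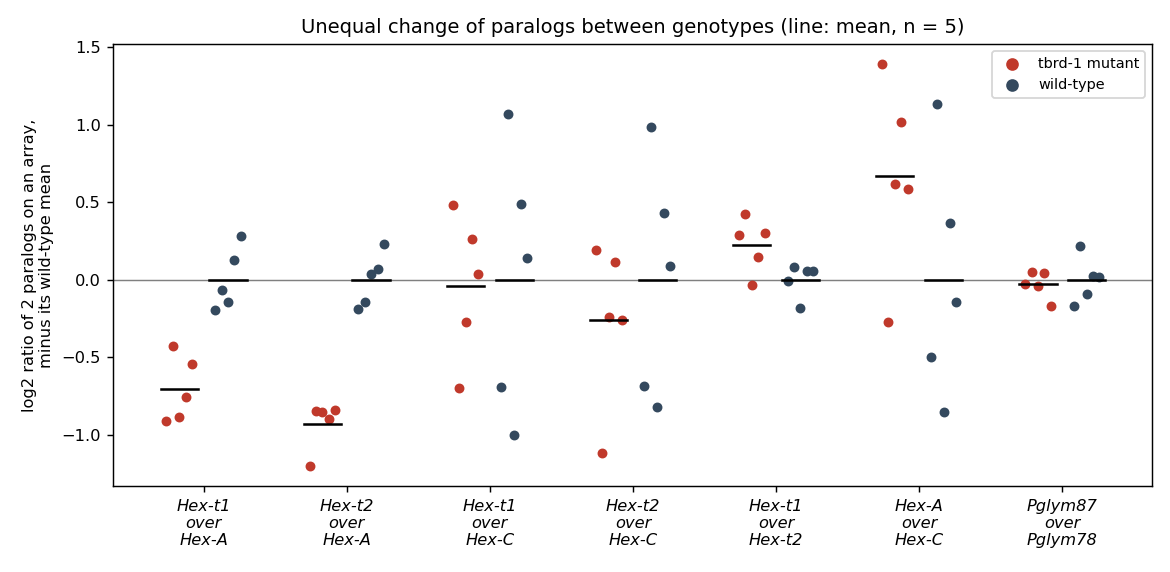
Log2 ratio of paralogous genes on each array, shifted so that the wild-type mean is 0 (points: arrays, *tbrd-1* mutant left of wild-type; lines: means, n = 5). *Hex-t1* over *Hex-A* and *Hex-t2* over *Hex-A* lie below every wild-type value in mutant testes, by -0.71 and -0.93 on average, while the other 5 pairs overlap.

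The other steps of the pathway were lower or did not pass. A list of 15 further genes of glycolytic steps and paralogs, including genes known here only by CG numbers, had 14 measured members, of which 10 were lower in *tbrd-1* mutant testes, 0 were higher and 4 did not pass, with a median log2-fold change of -0.32. Together with the 7 members this made 21 glycolytic genes, 13 lower (61.9%), 1 higher and 7 not past the threshold, beside 14.7% lower among all probe sets. That background includes dim probe sets. With the dimmest left out, 21.0% of the 12512 probe sets kept were lower, and the 21 genes again gave 13 lower and 1 higher. In 10 of the 21 every mutant array was below every wild-type array (10.3% of all probe sets) and in 1, *Hex-A*, every mutant array was above (13.6%). With median centring 9 were lower and 1 higher, beside 1879 lower and 6589 higher (35.1%) among all probe sets. Without the gut-rich arrays 9 were lower and 0 higher, beside 9.55% and 9.73%. Without the arrays rich in ejaculatory bulb RNA 6 were lower and 0 higher, beside 5.94% and 5.76%. The summed muscle signal was lower in all 5 mutant arrays too, and its part in these counts was not tested. The genes counted were chosen with earlier results of these data known, so the counts are descriptive only.

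The 4 steps that follow hexokinase were each lower on the brightest probe set. *Pfk*, phosphofructokinase, the main control point of the pathway, read 1624, 1762, 1768, 1596 and 1678 in mutant testes and 2603, 2169, 2544, 2375 and 2549 in wild-type testes. The groups were well apart, and the log2-fold change was -0.54 ± 0.064 (SE, adjusted p = 7.026e-05, limma). The enzymes in the next sentences were named for their place in the pathway, after their values were seen. *Tpi*, triosephosphate isomerase, was lower by a log2-fold change of -0.33 (adjusted p = 0.000257, limma), and *Pgi*, glucose-6-phosphate isomerase, by -0.25 (adjusted p = 0.0208). *Ald1*, an aldolase gene, was lower on its brighter probe set (-0.23, adjusted p = 0.00289) and did not pass on the other (-0.14, adjusted p = 0.316). *Pgi* and *Ald1* lost their calls with median centring (adjusted p = 0.119 and 0.105), without the gut-rich arrays (adjusted p = 0.20 and 0.0952) and without the arrays rich in ejaculatory bulb RNA (adjusted p = 0.157 and 0.0714), and *Pgi* also without mutant array 5 or wild-type array 1 (adjusted p = 0.0535 and 0.0513).

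Toward the end of the pathway 2 classical enzymes did not pass, and the differences of the greatest size on the list were in CG-numbered genes. *Pgk*, phosphoglycerate kinase, had a log2-fold change of -0.07 and *Eno*, enolase, one of -0.02, and both missed the threshold (adjusted p = 0.632 and 0.826, limma). *CG7069*, which the study annotates with pyruvate kinase activity and which lies beside *PyK* (listed as *Pyk*) with 0 annotated genes between them, read 1054, 1135, 1194, 1052 and 1049 in mutant testes and 2187, 2459, 1893, 2912 and 1694 in wild-type testes. Its log2-fold change of -0.9987 ± 0.13 (SE, adjusted p = 0.000121, limma) was just short of the fold minimum. *CG7069* counted as altered with arithmetic means (-1.02), array quality weights (-1.07) or ribosomal protein scaling (-1.03) and without mutant array 2 or 3 or wild-type array 3 or 5 (-1.09 to -1.01), and it missed the adjusted p without the arrays rich in ejaculatory bulb RNA (-0.98, adjusted p = 0.0657).

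*CG13334*, annotated in the study with L-lactate dehydrogenase activity, was the 1 altered gene of the 21 in the fit of all arrays. It had intensities of 207, 215, 172, 231 and 228 in mutant testes and 504, 542, 396, 508 and 540 in wild-type testes. The log2-fold change was -1.24 ± 0.10 (SE, adjusted p = 4.847e-06, limma), and every mutant array lay below the lowest wild-type array. *CG11249*, for which no role is stated here, averaged 536.8 ± 55.03 in mutant testes and 983.0 ± 61.63 in wild-type testes (SD, n = 5 each), a log2-fold change of -0.88 (adjusted p = 6.865e-06, limma). The other 5 CG-numbered genes of the list ran between -0.39 for *CG7362* and -0.03 for *CG9961*.

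**Figure D3:**
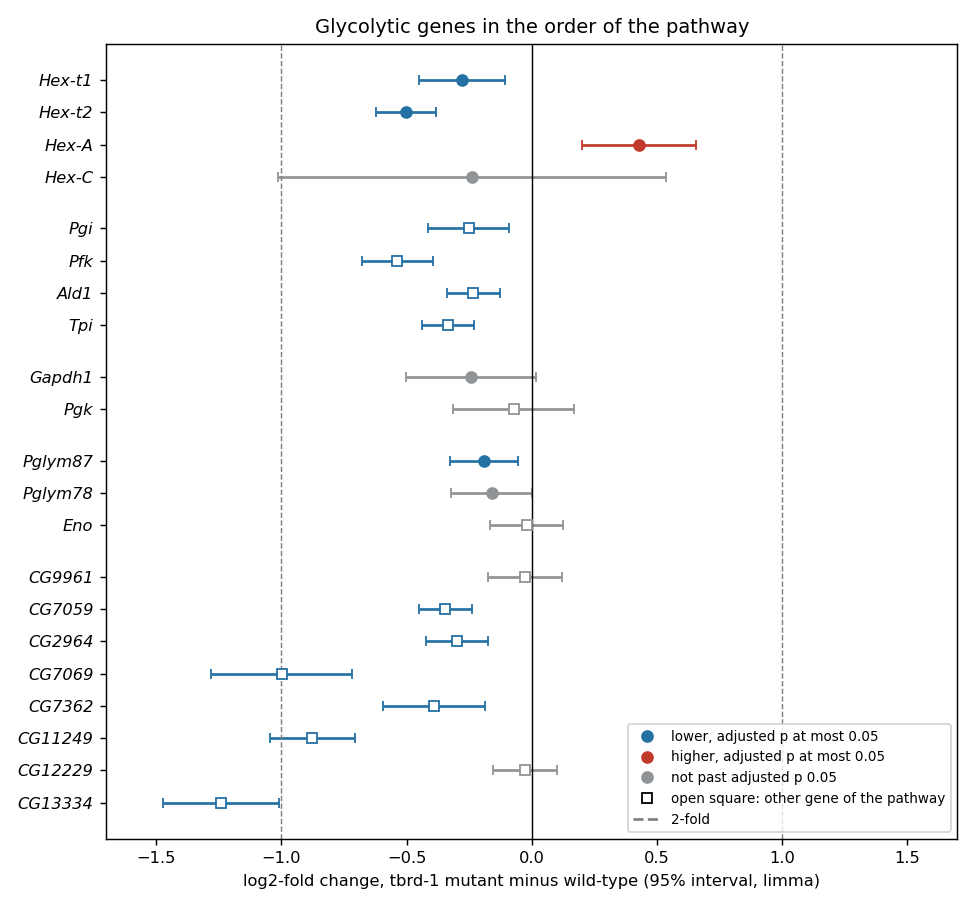
Log2-fold change of 21 glycolytic genes, *tbrd-1* mutant minus wild-type, with 95% intervals from limma. Named genes are in the order of the pathway from hexokinases at the top, and CG-numbered genes form a separate block at the bottom, not placed by step. Filled circles are the 7 members and open squares the other 14 genes. Of the 21, 13 are lower, *Hex-A* alone is higher, and *CG13334* at -1.24 passes the 2-fold line (dashed).

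The gut signal was set beside the members array by array. On the 4 gut-rich arrays the mean log2 intensity of the 14 gut genes was 8.25 on mutant array 3 and 9.53, 9.65 and 8.53 on wild-type arrays 1, 3 and 4, and on the other 6 arrays it lay between 4.77 and 6.28. *Hex-C* and *Gapdh1* had their highest wild-type values on wild-type array 3. *Hex-t2* read 4961, 5240 and 5272 on the gut-rich wild-type arrays and 5216 and 4830 on the other 2, and mutant array 3, the 1 gut-rich mutant array, had the highest mutant value, at 3943. The part of gut RNA in these values was not tested.

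**Figure D4:**
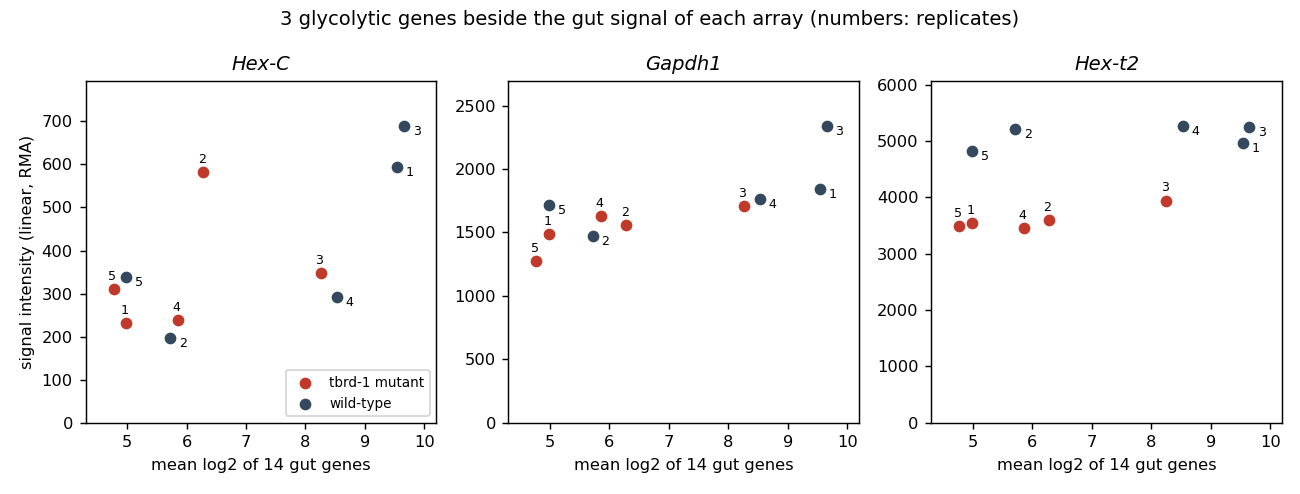
Signal intensity (linear, from 0) of *Hex-C*, *Gapdh1* and *Hex-t2* on each array against the mean log2 intensity of 14 gut genes on that array (red: *tbrd-1* mutant, dark: wild-type, numbers: replicates). *Hex-C* is high on wild-type arrays 1 and 3, which have gut values of 9.53 and 9.65, and *Hex-t2* has mutant arrays between 3463 and 3943 and wild-type arrays between 4830 and 5272.

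Pathways that feed glycolysis or draw from it were followed on 5 further lists. All lists were chosen with earlier results of these data known, so their counts are descriptive only. Over all 6 lists of other genes, 63 genes were listed and 54 measured, of which 28 were lower, 2 were higher and 24 did not pass, and 3 were altered, beside 14.7% lower, 21.6% higher and 3.54% altered among all probe sets. The same shares of all probe sets are the background for each list that follows. Among the 12512 probe sets kept when the dimmest were left out, 21.0% were lower and 25.6% higher. Muscle markers moved with these lists, with 6 lower and 0 higher of 11, a median of -0.39 and summed signals that did not overlap between genotypes, and their part in the lists, *Gpdh1*, *Glys* and *Glyp* included, was not tested. The glycerol 3-phosphate shuttle, which carries electrons of glycolytic NADH into mitochondria, was lower throughout, in 5 of 5 measured genes (of 6 listed) with a median log2-fold change of -0.50. *Gpo2*, a mitochondrial glycerophosphate oxidase gene, averaged 1354 ± 63.28 in mutant testes and 2090 ± 114.9 in wild-type testes (SD, n = 5 each), a change of -0.63 (adjusted p = 9.373e-06, limma). *Gpo3* was lower by -0.50 on its brighter probe set (adjusted p = 3.717e-05) and stood at 0.0033 on the other (adjusted p = 0.996). *Gpdh1*, the cytosolic enzyme of the shuttle, was lower on each of 4 probe sets, by between -0.34 and -0.65, and *Gpdh2* by -0.25 (adjusted p = 0.0220). On its brightest probe set *Gpdh1* (-0.65, adjusted p = 0.0339) lost its call in the methods' t-test (adjusted p = 0.0763), without mutant array 1, 4 or 5 or wild-type array 1 or 3 (adjusted p between 0.0746 and 0.0809), without the gut-rich arrays (-0.39, adjusted p = 0.385) and without the arrays rich in ejaculatory bulb RNA (adjusted p = 0.0994). *Gpdh2* lost its call with median centring (-0.15, adjusted p = 0.211), without the arrays rich in ejaculatory bulb RNA (adjusted p = 0.145) and without mutant array 3 or wild-type array 2 (adjusted p = 0.0514 and 0.051).

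Sugar supply and glycogen gave 5 lower, 2 higher and 8 genes not past the threshold of 15 measured (17 listed), with a median of -0.23. *Glys* and *Glyp*, glycogen synthase and glycogen phosphorylase, were lower by -0.93 (adjusted p = 0.000192, limma) and -0.89 (adjusted p = 0.000697). *Treh*, the trehalase that splits the blood sugar of insects into glucose, averaged 957.6 ± 104.0 in mutant testes and 1757 ± 145.0 in wild-type testes (SD, n = 5 each; -0.88, adjusted p = 1.364e-05). *Tret1-2*, a trehalose transporter gene, was lower by -0.61 (adjusted p = 3.226e-06). The 2 higher genes, likewise named after their values were seen, were the sugar transporter genes *sut4*, at 3544 ± 347.5 in mutant testes and 2326 ± 193.4 in wild-type testes (0.61, adjusted p = 0.000185), and *Glut1*, at 0.43 on its brightest probe set (not past without the arrays rich in ejaculatory bulb RNA, adjusted p = 0.0796) and 0.26 and 0.08 on the other 2.

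Pyruvate entry into mitochondria had 3 lower, 0 higher and 5 genes not past the threshold of 8 measured (10 listed), with a median of -0.18. *muc*, the acetyltransferase subunit gene of pyruvate dehydrogenase, was lower by -0.39 (adjusted p = 0.000447, limma), *CG32832* by -0.38 (adjusted p = 0.000164) and *CG7024* by -0.23 (adjusted p = 0.00221). *CG9396* had the largest difference of this list, -0.66, but did not pass (adjusted p = 0.147), with values of 300, 519, 406, 296 and 213 in mutant testes and 748, 275, 986, 414 and 462 in wild-type testes. *muc* and *CG7024* lost their calls without the arrays rich in ejaculatory bulb RNA (adjusted p = 0.0833 and 0.127), and *CG7024* also with median centring (adjusted p = 0.0875).

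Gluconeogenesis and its control gave 2 lower, 0 higher and 4 genes not past of 6 measured (7 listed). *Pepck2*, a phosphoenolpyruvate carboxykinase gene, read 23, 34, 28, 22 and 19 in mutant testes and 135, 77, 205, 89 and 86 in wild-type testes, low signals that did not overlap, and it was altered (-2.16, adjusted p = 7.358e-05, limma). *sima*, the fly HIF-alpha gene, was lower by -0.90 (adjusted p = 0.00105), while *Pepck1* stood at 0.32 (adjusted p = 0.167) and *Pfrx* at 0.16 (adjusted p = 0.155). Without the arrays rich in ejaculatory bulb RNA *sima* no longer passed (-0.99, adjusted p = 0.0858).

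The pentose phosphate pathway, which branches off after hexokinase, gave 3 lower, 0 higher and 3 genes not past of 6 measured (8 listed). *Rpe*, ribulose-phosphate epimerase, read 846, 809, 817, 816 and 779 in mutant testes and 2366, 2649, 2283, 2544 and 2437 in wild-type testes. The groups differed with very little spread, and *Rpe* was altered, at a log2-fold change of -1.59 ± 0.055 (SE, adjusted p = 5.387e-09, limma). *CG5103* was lower by -0.41 (adjusted p = 0.000181) and *Pgls*, 6-phosphogluconolactonase, by -0.23 (adjusted p = 0.00660), and *CG8036*, which the gene table also lists as Transk, stood at -0.24 (adjusted p = 0.0844). *Pgls* lost its call with median centring (adjusted p = 0.113), without the gut-rich arrays (adjusted p = 0.0558) and without the arrays rich in ejaculatory bulb RNA (adjusted p = 0.164).

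**Figure D5:**
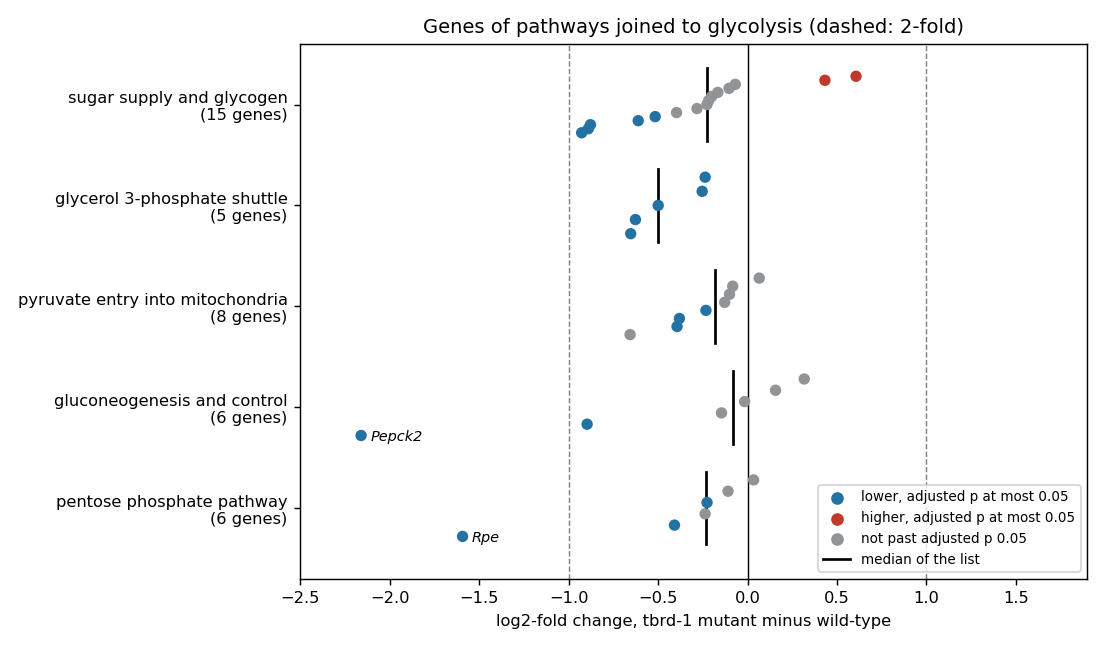
Log2-fold change, *tbrd-1* mutant minus wild-type, of single genes (points, brightest probe set) on 5 lists of pathways joined to glycolysis, with the list median as a vertical line and 2-fold changes dashed. All 5 medians are below 0, from -0.50 for the glycerol 3-phosphate shuttle to -0.08 for gluconeogenesis and control, and *Pepck2* and *Rpe* pass the 2-fold line.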

How the data were processed

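Testis RNA of 5 *tbrd-1* mutant and 5 wild-type pools was hybridized, and the authors deposited RMA-normalized signal intensities for 18952 probe sets in linear whole numbers, made with Affymetrix Expression Console per the labels. The versions of both are not stated. After 183 control probe sets were left out, log2 values were fitted with limma 3.58.1 (R 4.3.3, lmFit and eBayes, genotype as the single term), and p-values were adjusted over 18769 probe sets (Benjamini-Hochberg). The fit was tested on simulated data. The platform annotation gave 13647 probe sets 1 gene, 402 more than 1 gene and 4720 no gene, and 13544 symbols were updated through the Release 6 gene table. Lists were counted by the brightest probe set of a gene. Named were all members and, per list, the altered genes and the up to 4 largest changes. For altered members the most similar profiles were to be named, but no member was altered. Paralog tests were run in Python 3.11.15 with scipy 1.17.1. Members, lists, tests and alternatives were chosen with earlier results of these data known. Array medians were 67 to 70 in mutant and 68 to 77 in wild-type arrays, and precision is limited by how many arrays there are. Alternatives changed the test, variance prior, array weights, filter, scaling, replicate block, arrays, probe set and fold minimum.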

Additional observations from a re-analysis of the deposited data

Results flagged for a closer look

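Among 62 groups of 5 arrays, those of the members and of the other named genes, 2 held an array whose gap to its nearest neighbour exceeded 0.71 of the range of the group, a size that chance gives in about 1 of 20 groups. *Hex-t2* read 3943 on mutant array 3, with the next mutant array at 3595 (gap 0.725 of the range). *CG13334* read 396 on wild-type array 3, with the next wild-type array at 504 (gap 0.74 of the range). Both remained on their own side of the genotype difference, since the lowest *Hex-t2* value in wild-type testes was 4830 and the highest *CG13334* value in mutant testes was 231.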

How the results depend on the processing

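No member was altered under any alternative tried, the methods' t-test and a 1.5-fold minimum included; at an unadjusted p of at most 0.05 the 4 members named as lower or higher passed. *Hex-t2* stayed lower and past the threshold in every alternative fit, at -0.53 to -0.40. The count of lower members, 3, was 1 with median centring and 1 without the arrays rich in *Ebp* and *EbpII*, and the count of higher members, 1, was 0 without the gut-rich arrays and 0 without the *Ebp*-rich arrays, where fewer arrays were left. The log2-fold change of *Hex-C* turned to 0.29 without the gut-rich arrays. Leaving out 1 array in turn put the unequal change of *Hex-t1* and *Hex-A* between -0.77 and -0.63, of *Hex-t2* and *Hex-A* between -0.98 and -0.86, of *Hex-t1* and *Hex-t2* between 0.18 and 0.29, of *Hex-t1* and *Hex-C* between -0.29 and 0.23, and of *Pglym87* and *Pglym78* between -0.073 and 0.024. With 9 arrays the smallest permutation p is 0.0159. Both *Hex-A* pairs reached it in all 10 of these fits and lost their calls in 9 (adjusted p = 0.0556), where no other pair reached it. For *Hex-t2* and *Hex-A* this was fixed by the separation of each gene by genotype. *Hex-t1* and *Hex-t2* reached it without mutant array 3 and passed there (exact permutation test, adjusted p = 0.037). Without the gut-rich arrays, where the *Hex-A* pairs stood at -0.77 and -0.99, the smallest permutation p is 0.133. Replicate numbers were not taken as pairs. Deviations from the genotype means correlated between -0.31 and 0.48 for same-numbered arrays, and no mutant array correlated best with the wild-type array of its own number. With replicate numbers as a block 2 members were lower and 1 higher, *Pglym87* being the call lost (-0.19, adjusted p = 0.0957, limma).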
